A study of Arabidopsis thaliana with 8 samples.

Results

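A total of 103 of the 25410 Arabidopsis thaliana loci with a probe on the array (0.405%) were well above background on each of the 4 arrays of nst1 nst3 stems and on none of the 4 arrays of nst1 nst3 stems that carried the CEF2-VP16 transgene. A probe was counted as well above background on an array when the scanner software's own flag was set for more than 0.5 of its spots, and a locus when at least 1 of its probes was. These flags chose the 103 members, so the differences between the groups given below for them are descriptions and carry no test. The opposite pattern, with the transgenic arrays all above background and the controls all below it, held for 82 loci (0.323%). The number of members depended on single arrays, since the same rule gave 181 loci without control array 2 and 169 without transgenic array 1. Leaving out an array only drops a requirement of the rule, so all 103 stay and the count cannot fall.

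Stems of Col-0 plants were taken at a length of 10 cm, and the plants were raised on soil under a cycle of 16 h light and 8 h dark at 23 °C. All 8 arrays were hybridised in a single colour with Cy3-labelled RNA. The controls were the double mutant nst1-1 nst3-1, called nst1 nst3 here, in which both NST1 and NST3 are mutated. The transgenic stems had the same double mutation and the construct NST3pro:CEF2-VP16:HSP, in which the fiber-active NST3 promoter controls a fusion of an AP2/ERF factor with the viral activation domain VP16. That factor is CEF2 in the sample labels and ERF035 in the design text. The RNA was of whole stems, while the promoter acts in a part of their cells, so fewer cells of a type and less RNA per cell cannot be told apart in any value below. Whether replicate arrays stand for separate plants is not stated, and the controls lay on 1 slide and the transgenic samples on another, so slide and genotype cannot be told apart.

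NST1 and NST3 are NAC transcription factors that switch on the secondary wall programme of stem fibers, and plants without both form fibers with thin walls. AP2/ERF proteins form a large family of plant transcription factors, many of which act in responses to wounding, cold, drought, ethylene and microbes. The genes of such responses are switched on within minutes by calcium influx, reactive oxygen and the hormone jasmonate.

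The arrays read ERF035 (AT3G60490) at 434, 531, 57.1 and 458 units on control arrays 1 to 4 and at 38707 to 54379 units on the transgenic arrays. It was higher on all 4 transgenic arrays, and control array 3 was the lowest of the controls. Both mutated genes gave signal, NST1 (AT2G46770) at 292 to 556 units in the controls and 165 to 284 in the transgenic stems, and NST3 (AT1G32770) at 4151 to 7560 and 2268 to 3653 units. The positions of these probes and of the mutations were not known here, so the signals are no check of the genotype. An array had 30289 to 32382 of its 43603 probes well above background. The lowest signal that still counted as well above background, called the limit of the array here, was 17.7 to 27.0 units on the control arrays and 18.8 to 29.9 units on the transgenic arrays. As for the labelled tissue, all 11 listed xylem genes and all 10 listed phloem genes were well above background on every array. Among all 19609 genes tested with limma, 24.8% were lower and 29.5% higher in the transgenic stems at a Benjamini-Hochberg adjusted p under 0.05. Every member passed that test's filter through its control arrays alone, so no count of passing members is given.

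The members were mostly dim. The median of a member's 4 control signals was under 100 units in 71 of them, from 100 to 300 in 21 and at least 300 in 11, of which 4 reached 1000. In 56 members (54.4%) at least 1 control signal was under 2 times the limit of its array. All transgenic signals lay between 3.79 and 32.1 units. In 88 members every control signal also exceeded 29.9 units, the highest limit of a transgenic array. The loci were protein coding throughout, 47 of them carried a gene symbol and 56 only a locus number. They were spread over the 5 chromosomes as all loci on the array were, from 15.5% on chromosomes 2 and 4 to 25.2% on chromosome 1, where all loci had 15.6%, 15.0% and 26.2%. A total of 92 members had 1 probe.

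Not well above background did not mean without signal. The software also sets a laxer flag, which marks a spot whose signal is positive and significantly above the local background. By that flag 98 of the 103 members gave a signal on at least 1 transgenic array, 53 of them on all 4, and 5 on none. These 5 were PER4, AT1G53970, AT4G20700, AT4G22470 and AT5G38700. Choosing loci by the laxer flag gave 64 loci, and those 5 were the ones shared with the 103. The members are therefore loci under the stricter limit in the transgenic stems, most of them with some signal left.

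Differences were taken between the group means of log2 of the signal over the array's 75th percentile, with values under 0.01 of that percentile set to it. With this floor the members' differences ran from -0.03 to -6.07, with a median of -1.01, against a median of 0 over all loci. A total of 52 members were at least 1 log2 unit lower in the transgenic stems, 21 at least 2 units and 8 at least 3 units, while 24 differed by less than 0.5. In the opposite set the median was 1.36, the largest 4.87, and 58 of the 82 loci differed by at least 1 unit. The sizes are limited by how far a member's control signal stood above the floor, so a small value can belong to a locus that was dim in both groups. Where a fold is given below, it is a bound, the control mean against a mean over the transgenic arrays. On each transgenic array the highest of the floor, the limit and the member's own signal was taken. The bound concerns these means under this scaling alone and makes no allowance for the spread among arrays.

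**Figure D1:**
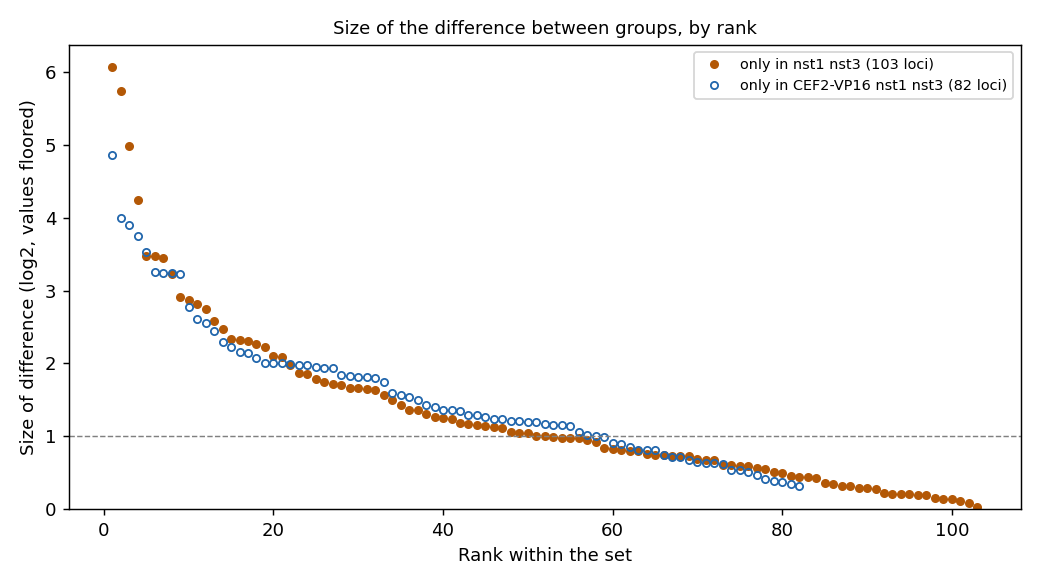
Size of the log2 difference between group means, after flooring, for the 103 loci well above background only in nst1 nst3 (filled) and the 82 loci with the opposite pattern (open), each ordered from the largest. The dashed line marks 1 log2 unit, which 52 of the 103 and 58 of the 82 loci reached.

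A total of 12 named members were placed in a stress or defence group, and their median difference was -1.92, with 10 of the 12 at least 1 log2 unit lower. These role groups were formed after names and values were seen, and their medians depend on that placement. The class III peroxidases PER4 and PRX52, for example, were placed in different groups. AGC2-1 (AT3G25250), also known as OXI1, is a protein kinase induced and activated by oxidative signals. It read 4583, 2526, 503 and 1781 units on control arrays 1 to 4 and 16.6, 24.4, 7.90 and 10.7 units on transgenic arrays 1 to 4. All controls lay far above all transgenic arrays, with control array 3 the lowest of the controls, and the level in the transgenic stems was at least 50.7-fold lower.

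MYB15 (AT3G23250) is a transcription factor of cold responses and of defence-related lignin formation. Its signals were 2337, 3194, 33.5 and 809.7 units in the controls and 20.5, 25.1, 16.2 and 29.1 units in the transgenic stems. Control array 3 came close to the highest transgenic array, and the bound over all arrays was 18.8-fold. The log2 difference of -4.24 depended on single controls, as it was -3.41 without control array 2 and -5.69 without control array 3.

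Jasmonate is made from membrane lipids, and 2 members belong to enzyme families of that route. AOC1 (AT3G25760), an allene oxide cyclase that forms the jasmonate precursor OPDA, read 1128, 2282, 64.9 and 103 units in the controls and 17.2, 11.4, 11.6 and 20.0 units in the transgenic stems. DLAH (AT1G30370), a lipase of the DAD1-like acylhydrolases, read 449.8, 1020, 101 and 200.3 units in the controls and 17.4, 15.6, 5.37 and 8.57 units in the transgenic stems. In both genes control arrays 1 and 2 were high and arrays 3 and 4 low, and the bounds over all arrays were 10.3-fold and 8.85-fold. Without control array 2 the log2 difference of AOC1 went from -3.45 to -2.47 and that of DLAH from -3.22 to -2.56, while AOC1 stood at -4.27 without control array 3 and -4.09 without array 4. A second, dimmer AOC1 probe was above background on 2 control arrays and differed by -0.62, and the mean of both probes differed by -2.03.

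The other genes of AOC1's family, named after their values were seen, were not members. AOC3 (AT3G25780) was above background on all 8 arrays and fell by 5.36 ± 1.03 log2 units (SE, n = 4 per group; limma adjusted p = 0.00313). AOC4 (AT1G13280) rose by 0.64 ± 0.11 (adjusted p = 0.0018). AOC2 (AT3G25770), which lies next to AOC1 in the gene table, was above background on 3 control arrays and 1 transgenic array and differed by -1.37 ± 0.91 (limma adjusted p = 0.233). AOC1, AOC2 and AOC3 are related in sequence, and signal on a probe from another copy was not tested.

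PER4 (AT1G14540), a secreted class III peroxidase, read 344, 159, 77.2 and 273 units in the controls and 4.17, 4.41, 4.22 and 6.65 units in the transgenic stems. It was among the few members without signal by the laxer flag. SBT3.3 (AT1G32960), a subtilisin-like protease tied to immune priming, read 246, 57.4, 97.3 and 124 units in the controls and 17.7, 17.98, 11.3 and 9.85 units with the transgene. Its neighbour in the gene table, AT1G32970, was a member too, at 102, 34.3, 37.0 and 85.3 units in the controls and 20.2, 4.63, 6.42 and 6.43 units in the transgenic stems. The pair had no gene between them and both stood highest on control array 1.

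The other stress members had log2 differences from -0.14 to -1.98. RLP20 (AT2G25440), a receptor-like protein, read 318, 81.5, 47.8 and 115 units in the controls and 13.4, 20.5, 6.08 and 13.4 units in the transgenic stems. MYB112 (AT1G48000), a regulator of anthocyanin formation under salt and high light, read 120.3, 53.9, 210.0 and 215 units in the controls and 12.8 to 16.9 units in the transgenic stems. Like SBT3.3, MYB112 was lowest on control array 2. MYB2 (AT2G47190), a factor of drought and abscisic acid responses, read 120.3, 86.9, 31.1 and 130.4 units in the controls and 4.99 to 17.1 units in the transgenic stems. GLR2.8 (AT2G29110), a glutamate receptor-like channel, read 134, 39.7, 38.8 and 82.2 units in the controls and 16.4, 22.1, 4.72 and 24.3 units with the transgene. The small heat-shock protein gene HSP17.4 (AT3G46230) differed by -1.87. WRKY75 (AT5G13080), a factor of phosphate starvation and senescence, was the weakest at 33.5, 25.1, 48.7 and 36.5 units in the controls and 4.56 to 10.8 units in the transgenic stems, a difference of -0.14 once floored, which was -0.000595 without control array 3.

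**Figure D2:**
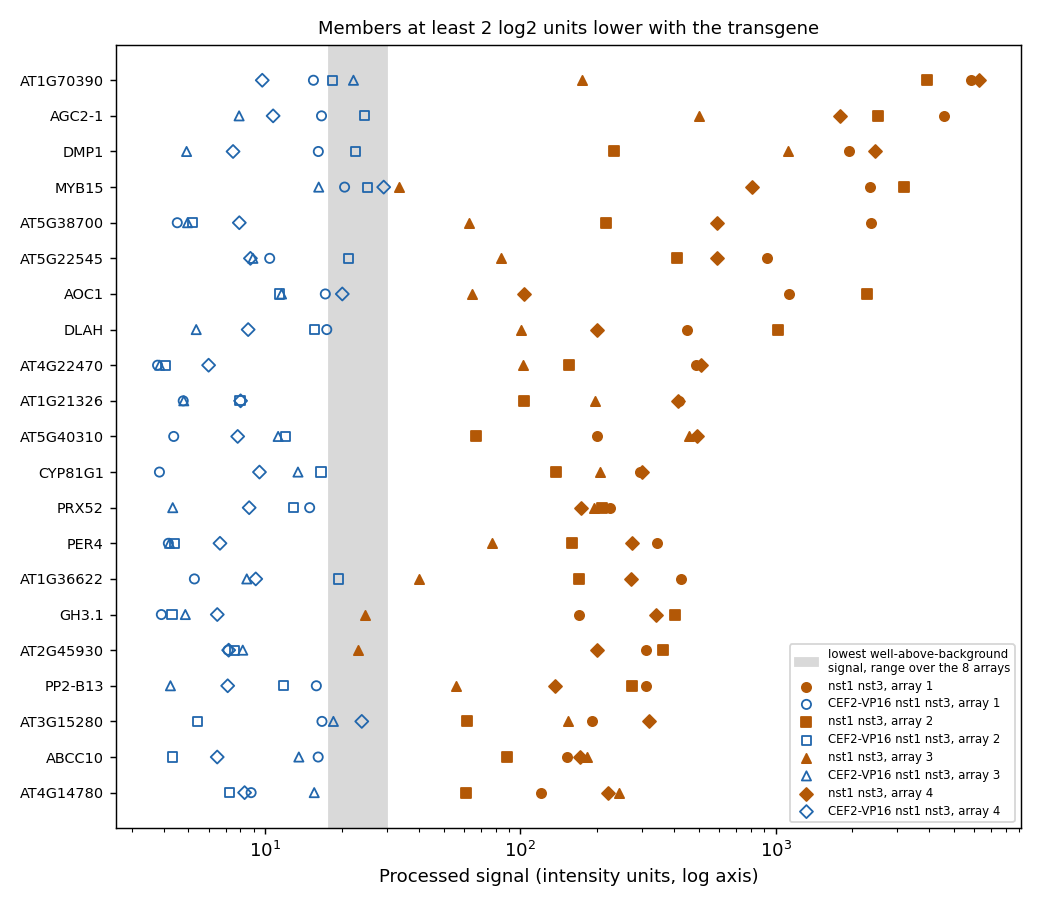
Processed signal on a log axis for the 21 members at least 2 log2 units lower in the transgenic stems, one row per locus, with filled symbols for the 4 nst1 nst3 arrays and open symbols for the 4 CEF2-VP16 nst1 nst3 arrays. The grey band spans the limits of the 8 arrays, 17.7 to 29.9 units. Triangles mark array 3, on which AT1G70390, AGC2-1, MYB15 and AOC1 had their lowest control signal.

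The largest difference belonged to AT1G70390, which has no symbol in the gene table. Its signals were 5843, 3921, 175 and 6287 units in the controls and 15.4, 18.3, 22.2 and 9.74 units with the transgene, at least 63.9-fold lower. Control arrays 1, 2 and 4 lay close together and control array 3 far below them, and without it the log2 difference went from -6.07 to -7.30. DMP1 (AT3G21520), a membrane protein gene known from senescing tissue, read 1939, 233, 1122 and 2448 units in the controls and 16.1, 22.6, 4.92 and 7.48 units in the transgenic stems. It was lowest on control array 2 rather than array 3, the bound was 30.1-fold, and the log2 difference went from -4.99 to -5.63 without control array 2.

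Further members known only by locus number followed. AT5G38700 read 2354, 216, 63.1 and 589.7 units in the controls and 4.52 to 7.92 units with the transgene. AT5G22545 read 929, 409, 83.8 and 587 units in the controls and 8.75 to 21.2 units with the transgene. Both were highest on control array 1 and lowest on array 3, and the bounds over all arrays were 10.59-fold and 10.55-fold. The log2 difference of AT5G38700, -3.48 over all arrays, was -2.63 without control array 1 and -4.33 without control array 3, and that of AT5G22545 was -4.19 without control array 3. AT4G22470 read 489, 155, 102 and 511 units in the controls and 3.79 to 6 units in the transgenic stems. AT1G21326 read 419.9, 103, 197 and 414 units in the controls and 4.77 to 8.01 units in the transgenic stems. AT5G40310 read 199.9, 66.9, 459 and 493 units in the controls and 4.38 to 12.03 units in the transgenic stems. For these loci arrays 2 or 3 were the lowest, and the bounds were 7.15-fold, 6.95-fold and 6.70-fold. In all, 55 members could be placed in no role group because they had only a locus number, and their median difference was -0.92, with 25 of them at least 1 unit lower.

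A total of 5 members were metabolic enzymes. CYP81G1 (AT5G67310), a cytochrome P450, read 295, 138, 205 and 299.9 units in the controls and 3.85 to 16.5 units in the transgenic stems. PRX52 (AT5G05340), a class III peroxidase associated with lignin of interfascicular fibers, read 225, 209, 194 and 173 units in the controls and 14.9, 12.9, 4.34 and 8.65 units in the transgenic stems. The controls of PRX52 lay close together, and the level was at least 5.68-fold lower with the transgene. KCS13 (AT2G46720), a fatty acid elongase that acts in wax formation, read 112, 90.04, 40.1 and 54.6 units in the controls and 8.85 to 22.7 units with the transgene. KCS14 differed by -0.75 and PGSIP8, a glycosyltransferase, by -1.06.

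Enzymes of growth hormones formed a group of 5. GA2OX8 (AT4G21200) inactivates gibberellin precursors, and it read 107, 396, 124 and 44.2 units in the controls and 4.62, 4.49, 5.01 and 27.0 units in the transgenic stems. Its log2 difference went from -1.85 to -1.21 without control array 2. UGT73C6 (AT2G36790), a glucosyltransferase that can inactivate brassinosteroids, read 47.4, 68.2, 72.2 and 50.5 units in the controls and 4.64 to 9.92 units with the transgene. GH3.1, which joins auxin to amino acids, differed by -2.33, LOG7, which releases active cytokinin, by -1.05, and CKX4, a cytokinin oxidase, by -0.28. Scaled to the array's 75th percentile, all 5 stood highest on control array 2.

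Of 17 other tested genes of gibberellin synthesis, inactivation and perception, 6 fell and 1 rose, with a median difference of -0.14. GID1B, a gibberellin receptor, fell by 3.14 ± 0.18 (SE; limma adjusted p = 3.0e-05), GA3OX1, which makes active gibberellin, by 1.82 ± 0.27 (adjusted p = 0.000946), and GA2OX6 by 1.49 ± 0.53 (adjusted p = 0.0439). Over all genes, 24.8% fell.

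The second role group of 12 members comprised genes known from anthers, pollen, ovules or seeds. Their median difference was -0.89, and 5 of the 12 were at least 1 unit lower. MS2 (AT3G11980), a fatty acyl reductase of the pollen wall, read 127, 69.4, 104 and 135 units in the controls and 8.84, 5.67, 5.43 and 8.70 units in the transgenic stems. ROPGEF12 (AT1G79860), an activator of ROP GTPases in pollen tubes, read 66.2, 51.6, 68.2 and 79.0 units in the controls and 10.1 to 20.8 units in the transgenic stems. In both genes the controls lay within a narrow range and, as in all 103 members, above every transgenic array.

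AGL104 (AT1G22130), a MADS factor of maturing pollen, read 45.2, 50.1, 34.0 and 74.8 units in the controls and 8.20 to 19.7 units in the transgenic stems. EC1.3 (AT2G21750), a small protein secreted by the egg cell, read 51.1, 31.6, 25.5 and 56.0 units in the controls and 9.59 to 19.0 units in the transgenic stems. AT2G21780, which lies 2 genes away from EC1.3, was a member at 110.1, 45.2, 115 and 207 units in the controls and 10.8 to 20.4 units in the transgenic stems. Both were highest on control array 4, and EC1.3 stood close to the limit. The NADPH oxidase gene RbohH (AT5G60010) of the pollen tube tip differed by -1.36, the ROP effector RIC3 by -1.26, the exocyst subunit EXO70C1 by -1.01, the meiosis gene SWI1 by -1.01, the actin-binding NET2C by -0.80, the proton pump gene HA6 by -0.56, the general transcription factor gene pBRP2 by -0.36 and the anther receptor kinase EMS1 by -0.19.

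Of 17 listed anther and pollen markers, 15 were matched by symbol, AGL104 among them. MS2, described above, and A9 were not matched and are in none of the following values. Of the 15, 6 were well above background on all control arrays and 5 on all transgenic arrays. Among the 5 that were tested and were no members, 3 fell and 1 rose. VGD1, a pectin methylesterase of pollen tubes, fell by 1.73 ± 0.12 (SE; limma adjusted p = 5.5e-05), PPME1, another of these, by 1.58 ± 0.23 (adjusted p = 0.000882) and the MADS factor AGL18 by 0.96 ± 0.15 (adjusted p = 0.00126). QRT3, a polygalacturonase that frees pollen grains from each other, rose by 1.03 ± 0.28 (limma adjusted p = 0.0163), but no anther or pollen marker rose under scaling on spike-in probes. Summed over the 15 markers, the level was 5.60 to 6.48 times an array's 75th percentile in the controls and 3.09 to 3.52 times it in the transgenic stems. The defining anther and sperm genes MS1, DYT1, ATA1, ATA7, HAP2 and DUO1 were above background on no array. The 9 flower bud markers summed to 6.14 to 7.91 in the controls and 3.51 to 5.55 in the transgenic stems, with AG, AP3, LFY and SUP above background on no array. Seed markers summed to 0.25 to 0.37 and 0.24 to 0.33. The part of floral tissue in the low reproductive signals was not tested.

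Transporters made up a group of 4. ABCC10 (AT3G59140), an ABC transporter, read 152, 88.8, 183 and 171 units in the controls and 4.32 to 16.1 units with the transgene, at least 4.09-fold lower. The cation exchanger CHX15 differed by -0.45, and the purine permeases PUP19 and PUP2 by -0.44 and -0.21.

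Named members outside these groups included signalling peptides and regulators. RALFL30 (AT4G13075), a peptide of the RALF family, read 63.4, 55.3, 73.7 and 104 units in the controls and 8.77 to 23.5 units with the transgene. ERF12 (AT1G28360), itself an AP2/ERF factor, read 81.6, 41.5, 47.2 and 119 units in the controls and 11.3 to 20.3 units with the transgene. FLA21 (AT5G06920), a fasciclin-like arabinogalactan protein, read 48.1, 47.9, 92.5 and 47.2 units in the controls and 4.61 to 13.9 units with the transgene. Their differences were -1.11, -0.99 and -0.76. AT5G37420, a MADS gene with the synonym AGL105, read 61.4, 57.9, 55.3 and 47.3 units in the controls and 4.55 to 15.3 units in the transgenic stems. The third pair of near neighbours was AT2G24285 and AT2G24320, with 4 genes between them. AT2G24285 read 58.0, 39.6, 26.6 and 83.7 units in the controls and 15.7 to 22.9 units in the transgenic stems, and AT2G24320 read 64.9, 49.98, 44.9 and 55.5 units in the controls and 10.4 to 17.1 units in the transgenic stems.

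Around the 21 members at least 2 units lower, 15 immediate neighbours in the gene table that were no members could be tested. Of these, 5 fell and 3 rose (33.3% lower, against 24.8% of all genes), and their median difference was -0.12.

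The control arrays did not read the members alike. Scaled to the 75th percentile, 45 of the 103 members (43.7%) were lowest on control array 3, against 23.3% of all genes tested, and 11 (10.7%) on array 4, against 19.4%. Control array 3 also had the lowest limit, 17.7 units against 23.2 to 27.0 on the other controls, so dimmer loci could meet the rule there. Among the 51 members under 1 log2 unit lower, 45.1% were lowest on array 3. Their median difference from the other controls there was -0.06 log2 units. Of the 52 members at least 1 unit lower, 42.3% were lowest on array 3, with a median difference of -0.18, and 42.3% on array 2. The span between a member's highest and lowest control array reached 2 log2 units in 24 members (23.3%), compared with 6.16% of all genes, and 19 of those 24 were lowest on control array 3. The members were much dimmer, with median log2 levels of -5.90 to -5.51 on the control arrays, against -0.62 to -0.55 over all genes tested. Members and genes of like brightness were not compared. The stress and defence members had a median span of 1.98 log2 units, and 8 of the 12 were lowest on array 3. In the anther, pollen, ovule or seed group the median span was 0.57, and none of the 12 reached 2 units. That group was dimmer, with a median control signal of 64.8 units against 151 in the stress and defence group. Every control signal had to exceed the limit, which leaves a dim member less room for a wide span. The 2 groups were not compared at like brightness. The members' median signal was 78.7, 50.8, 55.9 and 79.7 units on control arrays 1 to 4 and 13.7, 11.6, 10.1 and 8.82 units on the transgenic arrays, without scaling. These spans are within 1 genotype, and what set control array 3 apart was not tested.

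**Figure D3:**
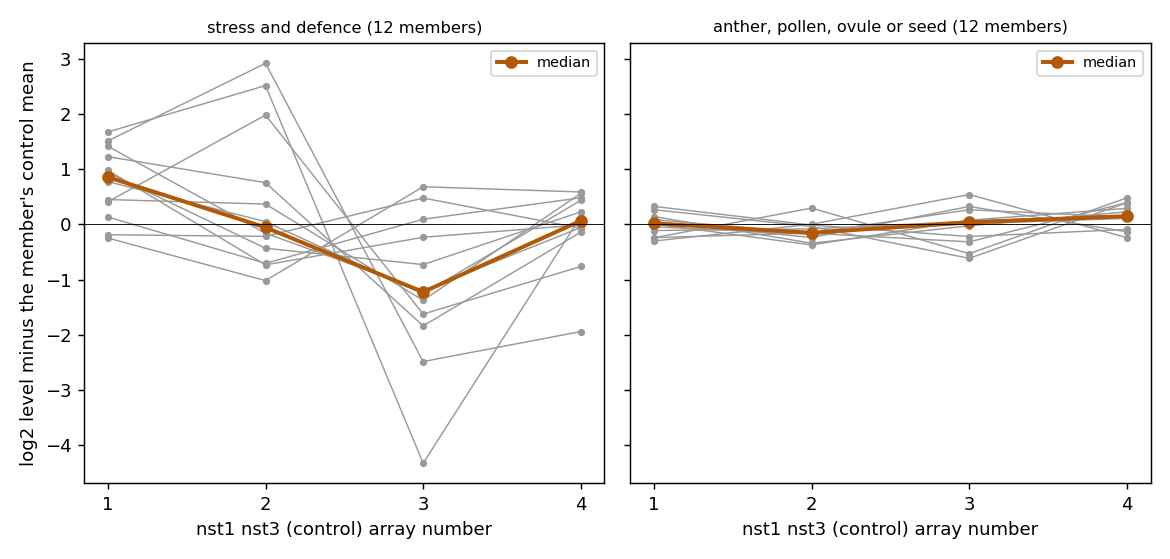
Level of each stress or defence member (left, 12 genes) and each anther, pollen, ovule or seed member (right, 12 genes) on the 4 control arrays, as log2 of the scaled signal (signal divided by the 75th percentile) minus the member's own control mean. Grey lines join the values of a gene and the thick line is the median, and array numbers have no order. Stress members spread over a median of 1.98 log2 units with 8 of 12 lowest on array 3, and the other group over 0.57. The other group was dimmer (median control signal 64.8 units against 151), which leaves less room for a spread above the limit.

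Genes of the same pathways that were no members were compared as well. The rule did not choose them, but they were listed with earlier results in view. The filter for testing could be met by the control arrays alone, so loci just outside the rule could be among them. The counts for these genes are therefore not independent of the rule. In the 10 lists together, 116 of 211 such genes fell and 32 rose, against 24.8% and 29.5% of all genes. In the list of the oxidative burst and its kinases, which holds AGC2-1, 12 of the 16 other tested genes fell and 2 rose, with a median of -2.11. RRTF1, a redox-responsive AP2/ERF factor, fell by 9.35 ± 1.496 (SE; limma adjusted p = 0.00135), the glutaredoxin GRX480 by 7.38 ± 1.24 (adjusted p = 0.00173) and the zinc finger factor ZAT10 by 3.74 ± 0.56 (adjusted p = 0.000983).

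In the jasmonate list, which holds AOC1, 23 of the 30 other genes fell and 2 rose, with a median of -2.77. JAZ7, a repressor of jasmonate signalling that jasmonate itself induces, fell by 8.10 ± 1.49 (SE; limma adjusted p = 0.0026), the jasmonate-inactivating CYP94B3 by 7.65 ± 0.83 (adjusted p = 0.000248) and the lipoxygenase LOX4 by 7.33 ± 0.99 (adjusted p = 0.000619). Of these 30 jasmonate genes, 25 were lowest on control array 3, with a median difference of -2.92 log2 units from the mean of the other controls. With AOC1 included, 24 of 31 tested jasmonate genes fell over all arrays, 25 of 30 without control array 3, 18 of 28 without control array 1, 19 of 31 without transgenic array 2, and 21 of 31 with the replicate number as a block.

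The immune response list fell in 19 of 23 genes and rose in none, with a median of -2.77, and WRKY40, a pathogen-induced repressor, fell by 7.37 ± 1.16 (SE; limma adjusted p = 0.00123). Calcium sensors and touch genes fell in 13 of 17 and rose in none, with a median of -1.70, and the calmodulin-like CML37 fell by 7.24 ± 1.01 (adjusted p = 0.000706). Of CBF, DDF and DREB factors, which act in cold and drought responses, 9 of 15 fell and 1 rose, with a median of -2.08. Ethylene genes fell in 14 of 24 cases and rose in 3, with a median of -0.59. ERF1 (AT3G23240), an ethylene and jasmonate response factor in that list, fell by 4.01 ± 0.36 (limma adjusted p = 0.000127). Salicylate genes fell in 8 of 17 and rose in 3, and abscisic acid genes fell in 9 of 25 and rose in 5, with medians of -0.40 and -0.33. Control array 3 was the lowest control for 13 of the 23 immune genes, 11 of the 17 calcium and touch genes, 7 of the 15 CBF, DDF and DREB factors, 11 of the 17 salicylate genes and 9 of the 16 oxidative genes. Over the 10 lists it was the lowest for 109 of 211 genes (51.7%), against 23.3% of all genes tested.

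The list of secondary wall regulators had the opposite balance, with 3 of 27 genes lower, 15 higher and a median of 0.57. MYB61 rose by 3.40 ± 0.46 (SE; limma adjusted p = 0.00064) while MYB69 fell by 3.07 ± 0.46 (adjusted p = 0.00102). Under scaling on the E1A spike-in probes, which moved the median of all genes to -0.40 and the shares to 40.0% lower and 10.5% higher, 9 of these 27 genes were lower and 7 higher. None of the secondary wall regulators was a member. Markers of some stem tissues rose as well, in 9 of 11 xylem and vessel genes (median difference 0.65) and 6 of 8 cambium genes (0.93). In the same way 6 of 8 epidermis genes (0.60) and 9 of 9 mesophyll genes (0.66) rose, while 2 xylem and 2 cambium genes fell. Other tissues differed. Of 10 phloem genes 3 fell and 3 rose (0.07), and of 8 shoot meristem genes 2 fell and 1 rose (0.09). Guard cell genes fell in 2 of 6 (-0.56) and trichome genes in 2 of 5 (-0.14), and 0 rose. In the root and root hair list, 3 of 4 tested genes rose (0.71), and 6 of its 12 genes on the array were above background nowhere. Under spike-in scaling, 2 xylem, 4 cambium, 2 epidermis, 1 root, 0 mesophyll, 0 phloem and 0 shoot meristem genes rose. The part of these tissues in the difference of the wall regulators was not tested.

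**Figure D4:**
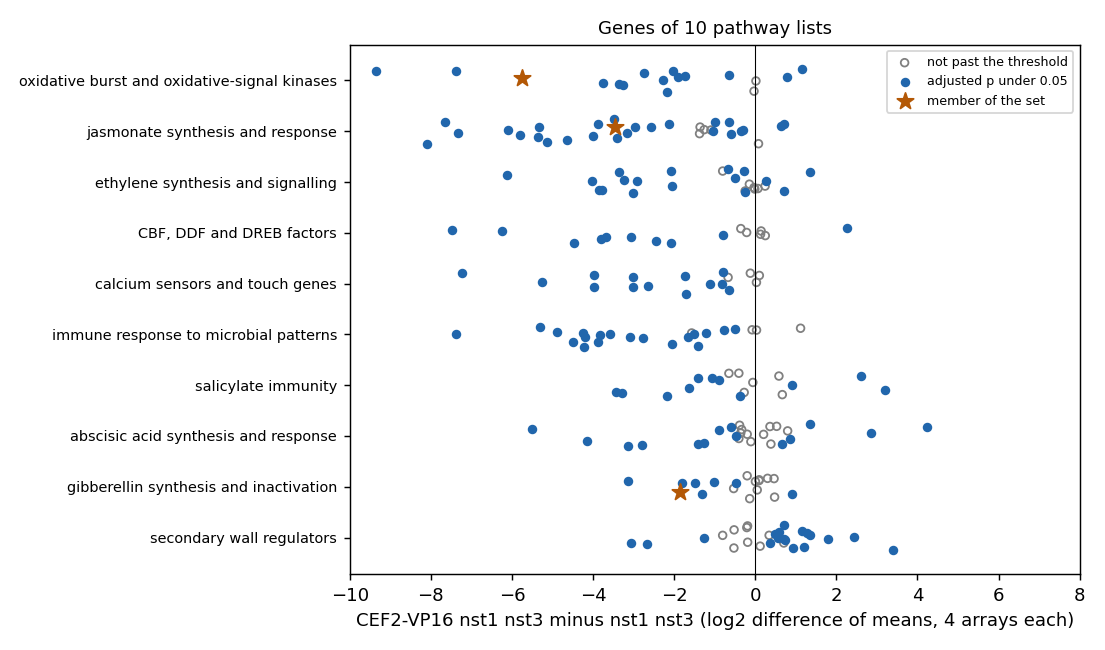
Log2 difference between the group means (4 arrays each) of every tested gene in 10 pathway lists, one point per gene, filled where limma's adjusted p was under 0.05. Stars are AGC2-1, AOC1 and GA2OX8, members of the set, which were chosen on the same contrast. Most filled points of the jasmonate, immune and oxidative lists lie below 0 (23 of 30, 19 of 23 and 12 of 16 tested genes other than the stars fell), and secondary wall regulators lie mostly above it.

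At the edge of the set, the 3 members with the smallest differences were AT1G06030, AT1G43000 and AT3G07450. AT3G07450 read 39.2, 28.3, 22.5 and 36.3 units in the controls and 10.1 to 17.5 units in the transgenic stems, a difference of -0.03. AT1G43000 read 38.1, 32.0, 35.1 and 32.4 units in the controls and 5.69 to 18.1 units with the transgene. AT1G06030 read 37.0, 31.4, 29.0 and 42.9 units in the controls and 9.11 to 19.3 units with the transgene. Their control signals came as near as 1.2, 1.33 and 1.36 times the limit of an array, for AT3G07450, AT1G06030 and AT1G43000. Just outside lay 105 loci that were above background on all controls and 1 transgenic array, and 135 on 3 controls and no transgenic array. Of these, AT1G19210 and DDF2 differed by more than any member. AT1G19210 read 25162, 7212, 92.8 and 42618 units in the controls and 3.94, 28.9, 10.7 and 6.27 units in the transgenic stems, a difference of -7.21. DDF2 (AT1G63030), a factor of drought and gibberellin responses, differed by -6.23, and AT4G20860 by -5.47. Each was above background on a single transgenic array. Control array 3 was the lowest control for all 3 of these loci, as it was for AT1G70390, AGC2-1, MYB15 and AOC1.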

How the data were processed

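Per the labels, 200 ng of total RNA per sample was labelled with Cy3 and hybridised to 44k Agilent arrays. The deposited intensity values and flags came, per the file headers, from Agilent Feature Extraction 11.5.1.1 on a TAIR10 grid, while the submitters' processing notes name 9.1.3.1. The authors' deposited value table holds natural log values and was an alternative only. Probes were named through RefSeq accessions in a gene table (34348 of 43603 probes, 25410 loci), so 9255 were left out. Signals were divided by the array's 75th percentile, floored at 0.01 of it and taken to log2. The brightest probe stood for a locus. Probes well above background on at least 4 of 8 arrays were tested in limma 3.58.1 (R 4.3.3), without covariates and adjusted by Benjamini-Hochberg over 19609 genes. The p-values reflect the spread among these arrays alone, which may be technical, and 4 arrays per group limit the precision.

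The members, lists, markers and alternatives were chosen with earlier results of these data known. Members given on every array were the 12 with the largest differences, the 6 brightest in the controls, members of lists and families, near neighbours and the 3 with the smallest differences. Of list genes, up to 3 by size were named. Families were matched on symbols and synonyms, as the gene table had no product column. Of the tissue lists, only that of anther and pollen held a matched member, AGL104. The locus table was named on assembly TAIR10.1, and no coordinates are given. A locus that met the rule is not reported here.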

Additional observations from a re-analysis of the deposited data

Results flagged for a closer look

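Each member given on every array was checked for an array that stands far from the other 3 of its group, by the gap to the nearest array as a share of the group's range. Of 44 groups with a spread, 7 passed the 95% limit. Chance flags about 1 in 20 groups of untied values, but the floor ties values here, so the 7 cannot be read against that share.

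In the controls, AT1G70390 stood apart on array 3, where it was lowest (0.943 of the range). MYB2 was lowest on the same array, where it was at the floor (0.895). WRKY75 was highest on control array 3, with 2 of the others at the floor (0.997).

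In the transgenic stems, AGC2-1 and RALFL30 were highest on array 2 and GLR2.8 and GA2OX8 on array 4. In these 4 genes the other 3 arrays were at the floor, so the gap was the whole range by construction (1) and says little about the signals themselves.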

How the results depend on the processing

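Leaving out 1 array, which can only add loci, gave 110 to 181 members. The laxer flag gave 64 members, of which 5 were shared, asking for control signals above 2 times the limit left 47, and allowing 1 transgenic array above background gave 208; the last pair of settings was added after seeing the data. The median difference of the members was -1.21 on spike-in scaling and -0.43 with normexp background correction (100 of 103 lower). It was -2.16 in the authors' value table, -2.17 with a floor of 0.001 and -1.02 to -0.96 without 1 control array. Without 1 transgenic array it stayed at -1.01, but 93 members were at the floor on all transgenic arrays, so these settings could hardly move it. Genes lower numbered 7837 on spike-in scaling and 2981 in the authors' value table, where the cause was not tested, and genes higher 2058 on spike-in scaling. Pathway genes higher numbered 16 on that scaling. Without 1 array, 4094 to 5351 genes were lower, 4800 to 5906 higher, and 99 to 118 and 27 to 33 of the pathway genes. With the replicate number as a block, 3904 genes were lower and 4715 higher, and 110 and 27 of the pathway genes, within 1.5 times of the counts without it. Arrays with the same number shared only that number (r = -0.40 to 0.16, and 1 of 4 controls correlated best with its own). The count of members lowest on control array 3 stayed between 37 and 45. The floor lay at 23.4 to 36.4 units, depending on the array, and values at it have no order.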

Other observations

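The same rule was applied to single probes without a locus name. Of 9255 such probes, 50 (0.54%) were well above background on all control arrays and on no transgenic array, and 28 had the opposite pattern. The median difference of the 50 was -0.80, the largest was -5.35, and 8 were at least 2 log2 units lower.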
